A study of Mus musculus with 6 samples.

Results

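The messenger RNAs of 10 genes of bone morphogenetic protein (BMP) and transforming growth factor beta (TGF-beta) signalling were followed in brain endothelial cells in which the long non-coding RNA Gm39822 had been knocked down. The genes were Eng, Acvrl1, Tgfbr1, Tgfbr2, Bmpr2, Smad1, Smad5, Smad6, Smad7 and Id1, chosen by symbol from 49315 genes listed, and all 10 had enough counts to be tested. The cells were bEND.3, a permanent line of mouse brain endothelial cells, transfected with Lipofectamine 2000. In 4 samples the oligonucleotide was an antisense LNA GapmeR to Gm39822 at 100 nM, and in 2 samples it was a Negative Control GapmeR at the same dose. A GapmeR pairs with its target RNA and directs RNase H to cut it, and both groups carried one. No time after transfection is given for the sequenced cells in the sources used here, and nothing in the labels says that the samples of a group came from separate cultures, so p-values measure the spread between these samples only.

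BMP and TGF-beta ligands bind pairs of type I and type II receptor kinases, and the type I receptor then phosphorylates receptor SMAD proteins. These join SMAD4, enter the nucleus and switch target genes on or off, while the inhibitory SMADs act back on the receptors. In endothelium the branch through ALK1 (Acvrl1), BMPR2, the co-receptor endoglin (Eng) and SMAD1 and SMAD5 is known for controlling vessel calibre and quiescence. Loss of ENG or ACVRL1 causes hereditary haemorrhagic telangiectasia in people, and loss of BMPR2 causes heritable pulmonary arterial hypertension.

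Of the 10 genes, Eng and Bmpr2 fell after knockdown and none rose, while 20.0% of all genes tested were lower and 25.4% higher. The call of Eng held in all 14 alternative settings and that of Bmpr2 in 9. Eng messenger RNA was 33.6% lower than in the controls and Bmpr2 was 17.0% lower. The type I receptors Acvrl1 and Tgfbr1, the type II receptor Tgfbr2, the SMADs and the BMP target Id1 did not pass the test. Id3, the close relative of Id1 and another BMP target, fell to 24.2 from 59.6 CPM (counts scaled to a common library size). Smad4, the partner of all receptor SMADs, rose, and the decoy receptor Bambi fell.

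The promoters of Eng, Bmpr2 and Id3 are shown because these are the called genes the account turns on. Each window holds the 250 bases before the annotated start, on the plus strand of GRCm38.p6 (mm10) and taken from RefSeq. Capitals mark CAGAC or its reverse complement GTCTG, a short sequence that SMAD proteins can bind, and GGCGCC, a GC-rich SMAD sequence that reads the same on both strands.
Eng, chr2:32646345-32646594: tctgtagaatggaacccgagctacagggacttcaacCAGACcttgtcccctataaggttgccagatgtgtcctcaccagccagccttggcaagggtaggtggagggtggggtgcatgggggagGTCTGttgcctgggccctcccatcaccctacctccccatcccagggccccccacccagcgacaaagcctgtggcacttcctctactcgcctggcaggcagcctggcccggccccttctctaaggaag
Bmpr2, chr1:59764029-59764278: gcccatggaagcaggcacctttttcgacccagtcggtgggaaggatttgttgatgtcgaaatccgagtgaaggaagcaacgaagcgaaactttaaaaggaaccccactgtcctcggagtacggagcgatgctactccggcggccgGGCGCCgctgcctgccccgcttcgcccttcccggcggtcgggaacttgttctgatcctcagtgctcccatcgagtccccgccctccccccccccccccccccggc
Id3, chr4:136143572-136143821: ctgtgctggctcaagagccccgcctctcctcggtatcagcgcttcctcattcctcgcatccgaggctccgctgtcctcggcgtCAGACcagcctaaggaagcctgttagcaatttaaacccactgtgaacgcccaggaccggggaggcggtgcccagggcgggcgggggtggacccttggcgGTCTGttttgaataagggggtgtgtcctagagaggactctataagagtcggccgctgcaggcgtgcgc

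The Eng window held CAGAC or GTCTG at positions -214 and -127 counted back from the start, and the Id3 window at -167 and -68. The Bmpr2 window held GGCGCC once, at -105. Over 32851 promoter windows of the same length, 42.2% held CAGAC on either strand and 9.59% held GGCGCC. Windows of genes that were not called held them too: CAGAC stood in a window of Tgfbr1, of Tgfbr2 and of Smad5, and GGCGCC in a window of Tgfbr1 and of Smad5. A match describes these letters only. RefSeq windows were found for 7 of the 10 genes. There was no entry for Acvrl1, Smad7 and Id1.

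The libraries held between 29261988 and 37117934 counts. Gm39822 had 2, 1, 4 and 2 counts in GapmeR 1 to 4 and 61 and 56 counts in Negative Control 1 and 2, so the target was low in every library labelled as knockdown. Levels are CPM scaled by edgeR's TMM method, and differences were tested by edgeR's quasi-likelihood test over 18234 genes with Benjamini-Hochberg (BH) adjustment. A gene was called at an adjusted p-value under 0.05. Of all genes tested, 45.3% were called, with 25.4% higher and 20.0% lower after knockdown, and the values of the groups did not overlap for 59.2%. A large share of the transcriptome thus differed between the groups, and the counts for the 10 genes are read against these shares. The 12 endothelial markers summed to 8848 to 10039 CPM in the GapmeR samples and to 10368 and 10807 CPM in the controls, with 6 of the 12 lower and 2 higher. In bulk RNA, fewer cells of a type and less RNA per cell cannot be told apart. The 12 macrophage markers summed to 228, 209, 355 and 388 CPM in GapmeR 1 to 4 and to 175 and 170 CPM in Negative Control 1 and 2, with 4 of 12 higher and none at 0. The 10 smooth muscle and fibroblast markers summed to 23.1 to 101 CPM against 17.0 and 17.5 CPM, the highest being GapmeR 3. Of the 9 tested, 1 was called higher and 0 lower. That gene was Myh11, with 182, 210, 184 and 189 counts in GapmeR 1 to 4 and 10 and 8 in the controls. The 6 epithelial markers summed to 1.18 to 1.45 CPM against 0.475 and 0.783 CPM, and 2 of them, Epcam and Cdh1, had at most 3 counts in every sample. The part of these other cell types in the results was not tested.

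All 10 genes were expressed in every sample, at between 10.1 and 493 CPM on average over the 6 samples. Compared per length, as CPM per kilobase of exon in the controls, Eng was highest at 81.5 ± 0.910 (SD, n = 2). Acvrl1 followed at 59.2 ± 2.23, Tgfbr2 at 41.1 ± 0.972 and Id1 at 13.7 ± 1.25 SD. These steps were larger than the spread between the controls, but that spread does not cover error in the exon lengths. The length used for Id1 was 1775 bases, longer than its RefSeq span given below. The order of genes per length thus depends on the annotation used. Smad1 at 8.16 ± 0.279 and Smad5 at 7.38 ± 0.0542 lay close together, above Smad6 at 5.56 ± 0.261. Tgfbr1 at 2.49 ± 0.0850, Bmpr2 at 2.36 ± 0.00683 and Smad7 at 2.35 ± 0.134 came last, and the order of Bmpr2 and Smad7 was within their spread. After knockdown Acvrl1 was at 61.1, 51.7, 61.9 and 57.9 CPM per kilobase in GapmeR 1 to 4 and Eng at 58.8, 41.9, 60.0 and 56.0. Acvrl1 was thus above Eng within each GapmeR sample and below it in both controls. Undivided by length, Acvrl1 and Eng were nearly equal in GapmeR 1 (462 and 458 CPM), GapmeR 3 (468 and 468 CPM) and GapmeR 4 (437 and 436 CPM). Their order in these samples therefore depends on the lengths used.

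**Figure D1:**
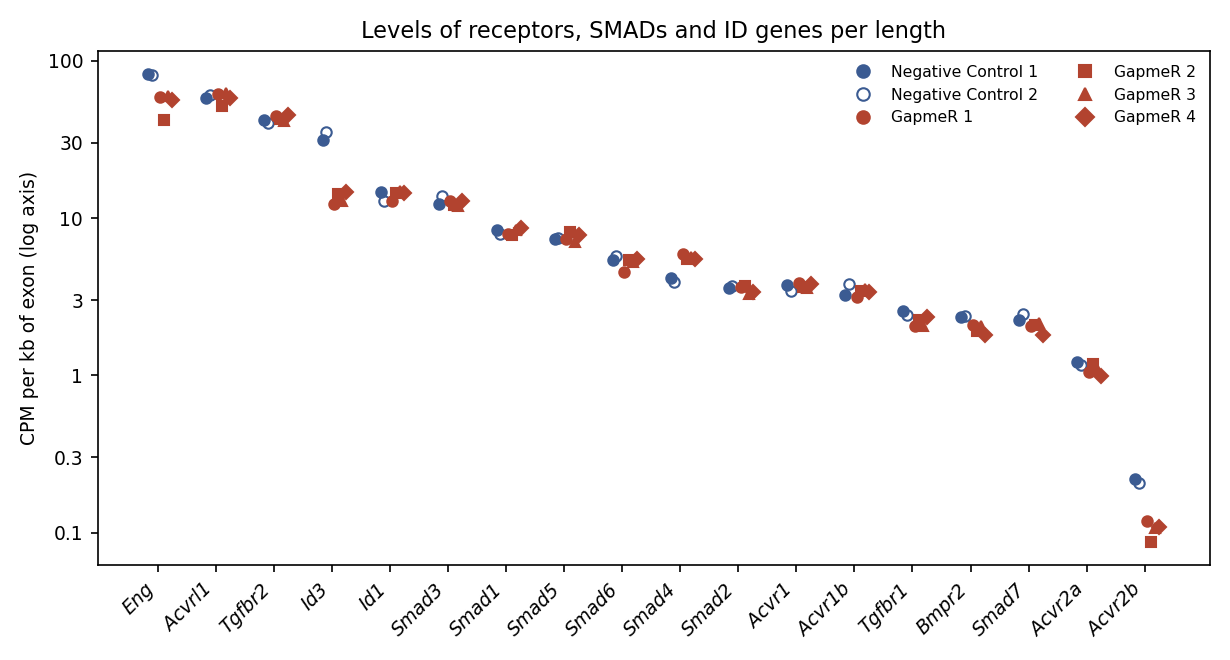
Level of receptors, SMADs and ID genes in each sample, in CPM per kilobase of exon on a log axis, ordered by the control mean. Blue circles are the 2 Negative Control samples and red symbols the 4 GapmeR samples. Eng is highest in the controls at 81.5 CPM per kilobase, and Id3, Smad4 and Acvr2b show the groups apart.

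Eng encodes endoglin, a transmembrane glycoprotein that presents BMP9 and TGF-beta to their receptors and is a marker of endothelium. In mm10 coordinates it spans chromosome 2 from 32646595 to 32682669. The normalized level was 458, 327, 468 and 436 CPM in GapmeR 1 to 4 and 641 and 631 CPM in Negative Control 1 and 2. Every GapmeR sample was below both controls, GapmeR 2 was the lowest, and the groups did not overlap. The mean was 422 ± 65.0 CPM (SD, n = 4) with the Gm39822 GapmeR and 636 ± 7.10 CPM (SD, n = 2) with the control GapmeR. The log2 fold change was -0.59 ± 0.12 (SE, 95% interval -0.85 to -0.33, edgeR adjusted p = 0.00179). Eng was called lower under all 14 alternative settings, with log2 fold changes between -0.70 and -0.44. Leaving out GapmeR 2, the lowest sample, gave -0.48. Exons of Eng overlap those of Fpgs on the opposite strand in GRCm39, and whether the counting used strand is not given in the sources used here. Fpgs had 645 to 1091 counts in a sample against 12724 to 20133 for Eng, with a log2 fold change of 0.14 (edgeR adjusted p = 0.235). Among the endothelial markers, Cdh5, the VE-cadherin of endothelial junctions, had a log2 fold change of -0.51 and Pecam1, the adhesion molecule CD31, of -0.30, and both were called lower, as was the sialomucin Emcn at -1.33. In the other direction, the endothelial transcription factor Erg, at 1.12, and Egfl7, at 0.22, were called higher. Tie1 and Cldn5, at 0.15 and 0.09, were not called. The part of a general change of endothelial markers in the level of Eng was not tested.

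Acvrl1 encodes ALK1, the type I receptor that pairs with endoglin and BMPR2 in endothelium. It lies on chromosome 15 from 101128522 to 101145336. Its level was 462, 391, 468 and 437 CPM in GapmeR 1 to 4 and 435 and 459 CPM in Negative Control 1 and 2. The controls lay inside the range of the GapmeR samples, and GapmeR 2 was again the lowest. Its log2 fold change was -0.02 ± 0.08 (SE, edgeR adjusted p = 0.833), with a 95% interval of -0.20 to 0.15. A fall below 0.870 times or a rise above 1.11 times the control level was thus outside the interval. With scaling by library size only it was at 0.12 and not called, and that scaling moved the median log2 fold change of all genes by 0.15.

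Tgfbr1 encodes ALK5, the type I receptor for TGF-beta that phosphorylates SMAD2 and SMAD3. It lies on chromosome 4 from 47353222 to 47414926. Its level was 13.6, 14.8, 13.6 and 15.4 CPM in GapmeR 1 to 4 and 16.9 and 16.1 CPM in Negative Control 1 and 2. All GapmeR samples lay below both controls, at a mean of 14.4 ± 0.920 CPM (SD, n = 4) against 16.5 ± 0.563 CPM (SD, n = 2), but the gene was not called. The log2 fold change was -0.20 ± 0.10 (SE, 95% interval -0.40 to 0.00453, edgeR adjusted p = 0.103).

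Bmpr2 encodes the type II receptor for BMPs, a constitutively active kinase that phosphorylates ALK1. It lies on chromosome 1 from 59764279 to 59878081. Its level was 37.5, 34.6, 36.9 and 32.7 CPM in GapmeR 1 to 4 and 42.6 and 42.7 CPM in Negative Control 1 and 2. The controls were nearly equal and above all 4 GapmeR samples. The mean was 35.4 ± 2.20 CPM (SD, n = 4) with the Gm39822 GapmeR and 42.7 ± 0.123 CPM (SD, n = 2) with the control GapmeR. The log2 fold change was -0.27 ± 0.08 (SE, 95% interval -0.43 to -0.10, edgeR adjusted p = 0.0105). This call was less stable than that of Eng. It held in 9 of 14 alternatives and was lost with scaling by library size only (-0.12, adjusted p = 0.216 in edgeR), without control 1 (-0.25, adjusted p = 0.0895), without control 2 (-0.24, adjusted p = 0.110), without GapmeR samples 3 and 4 (-0.22, adjusted p = 0.0633), and with a replicate block. Its exons overlap an antisense gene and another gene on the same strand in GRCm39.

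Tgfbr2 encodes the type II receptor for TGF-beta, which recruits and activates ALK5. It lies on chromosome 9 from 116087695 to 116175363. Its level was 389, 374, 366 and 399 CPM in GapmeR 1 to 4 and 368 and 356 CPM in Negative Control 1 and 2. Only GapmeR 3 lay between the controls, and the other GapmeR samples lay above them. The log2 fold change was 0.08 ± 0.07 (SE, 95% interval -0.07 to 0.23, edgeR adjusted p = 0.394). Scaling by library size only gave 0.23 and a call (adjusted p = 0.0161 in edgeR). The same shift of all genes applies here, so the value relative to that shift stayed near the one above.

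**Figure D2:**
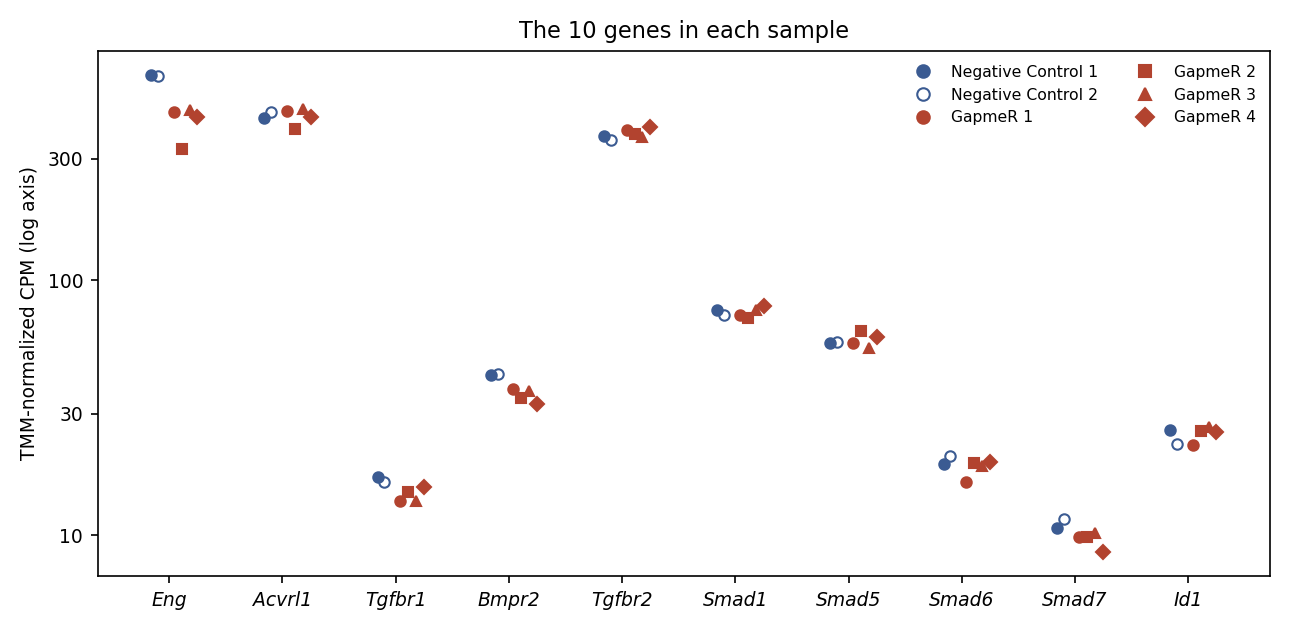
TMM-normalized CPM of the 10 genes in each sample, on a log axis, ordered by role. Blue circles are the 2 Negative Control samples and red symbols the 4 GapmeR samples. Eng (327 to 468 CPM against 631 and 641) and Bmpr2 (32.7 to 37.5 CPM against 42.6 and 42.7) lie below the controls in every GapmeR sample, while Acvrl1, Tgfbr2, Smad1, Smad5, Smad6 and Id1 overlap.

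Smad1 and Smad5 encode the receptor SMADs of the BMP branch. Smad1, on chromosome 8 from 79338395 to 79399428, was at 71.4 to 79.6 CPM in the GapmeR samples and at 76.6 and 73.0 CPM in the controls. Smad5, on chromosome 13 from 56703010 to 56742378, was at 54.3 to 63.0 CPM in the GapmeR samples and at 56.7 and 57.2 CPM in the controls. In both genes the controls lay within the range of the GapmeR samples. Their log2 fold changes were 0.01 (95% interval -0.15 to 0.16) and 0.04 (95% interval -0.12 to 0.20). Neither was called, with edgeR adjusted p = 0.947 and 0.709.

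Smad6 and Smad7 encode the inhibitory SMADs, which block receptor signalling and are themselves switched on by it. Smad6, on chromosome 9 from 63953076 to 64022085, was at 16.1, 19.2, 18.6 and 19.3 CPM in GapmeR 1 to 4 and at 19.1 and 20.4 CPM in Negative Control 1 and 2. Smad7 was at 9.83, 9.84, 10.3 and 8.57 CPM in GapmeR 1 to 4 and at 10.7 and 11.6 CPM in Negative Control 1 and 2. The groups overlapped for Smad6, whereas every GapmeR sample was below both controls for Smad7. Neither gene was called: the log2 fold change was -0.11 for Smad6 (95% interval -0.31 to 0.10, adjusted p = 0.388 in edgeR) and -0.21 for Smad7 (95% interval -0.45 to 0.02, adjusted p = 0.134 in edgeR).

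Id1 encodes an inhibitor of basic helix-loop-helix factors and is a direct target of SMAD1 and SMAD5. It lies on chromosome 2 from 152736251 to 152737410. Reads numbered 766, 996, 822 and 822 in GapmeR 1 to 4 and 711 and 728 in Negative Control 1 and 2. Scaled, these were 22.6, 25.6, 26.5 and 25.4 CPM against 26.0 and 22.8 CPM, and the groups overlapped. Its log2 fold change was 0.04 ± 0.09 (SE, 95% interval -0.15 to 0.23, edgeR adjusted p = 0.755).

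Counted together, 2 of the 10 genes were called lower, the same share as the 20.0% of all genes, and 0 were called higher, against 25.4%. No member reached an unadjusted p under 0.05 on the higher side in edgeR, DESeq2 or limma-voom, while with scaling by library size only 3 did, of which 1, Tgfbr2, was called after adjustment. The groups did not overlap for 4 of the 10 (Eng, Bmpr2, Tgfbr1 and Smad7), against 59.2% of all genes. The median log2 fold change was -0.07 and the median absolute value was 0.09, against 0.38 over all genes tested. Low genes have wide fold changes, so the 8522 genes within the expression range of the 10 were also counted. Of these, 30.2% were called lower and 21.6% higher, and their median absolute value was 0.23.

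**Figure D3:**
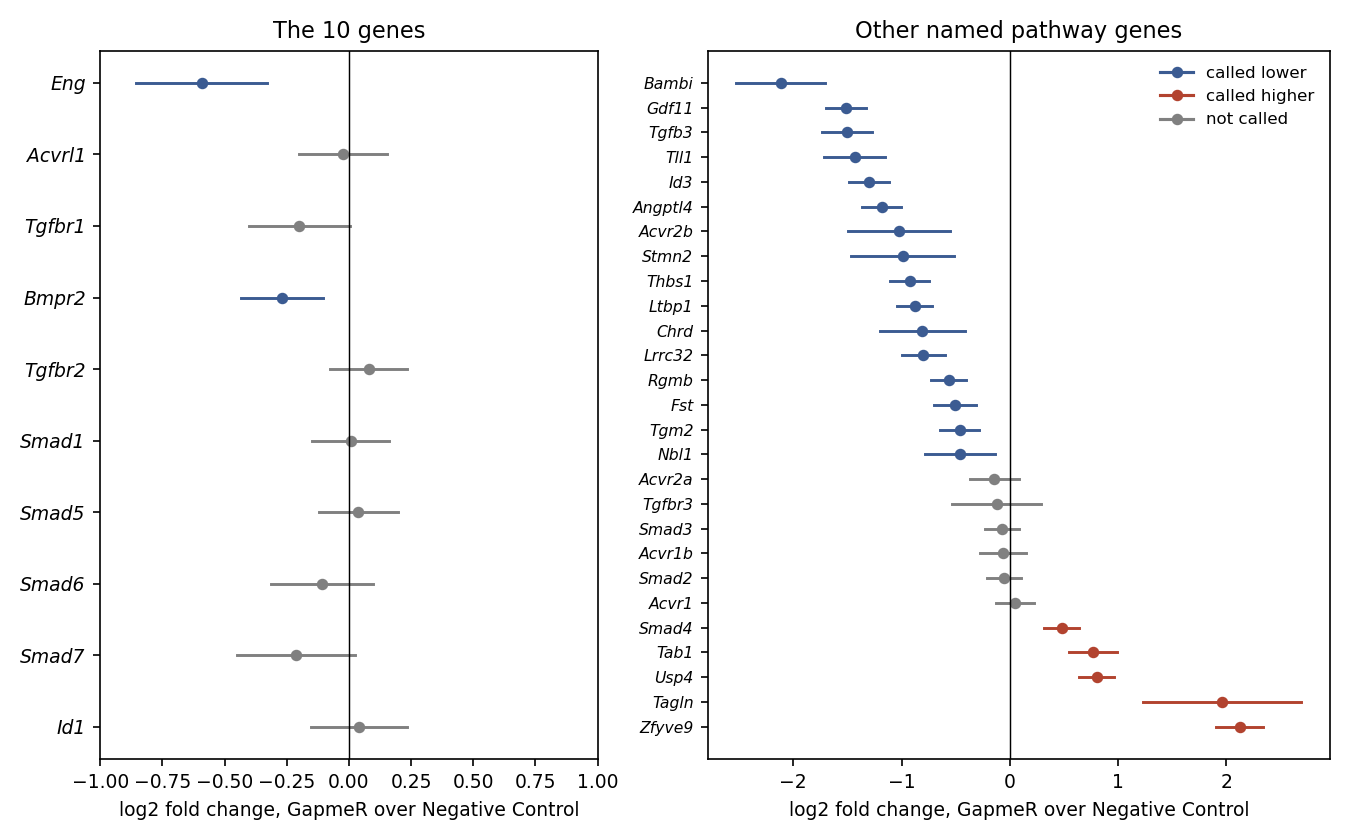
Log2 fold change of GapmeR over Negative Control with its 95% interval from edgeR, for the 10 genes (left) and for other pathway genes named by rule (right; Amhr2 and Bmp8a lie off the scale and are not drawn). The horizontal scales of the panels differ. Among the 10, the intervals of Eng (-0.85 to -0.33) and Bmpr2 (-0.43 to -0.10) lie below 0.

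Ratios within a sample do not depend on how libraries were scaled. The log2 count ratio of Id1 to Id3 was 0.05, -0.00289, 0.21 and -0.05 in GapmeR 1 to 4 and -1.10 and -1.48 in Negative Control 1 and 2. Per kilobase of exon, Id1 stood at 1.05 times Id3 after knockdown and at 0.413 times Id3 in the controls. All GapmeR samples lay above both controls, by 1.34 on average. The log2 ratio of the type II receptors Tgfbr2 and Bmpr2 was 3.43 ± 0.13 (SD, n = 4) after knockdown and 3.08 ± 0.04 (SD, n = 2) in the controls. This ratio too was higher in every GapmeR sample, by 0.35 on average. For both ratios the two-sided exact permutation test gave p = 0.0667, the smallest that 15 splits of 4 samples against 2 can give, and 0.20 after BH adjustment over 6 pairs. This test therefore cannot reach 0.05 for a single ratio.

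The other 4 ratios overlapped between the groups. Tgfbr1 to Acvrl1, the type I receptors of the TGF-beta and BMP branches, differed by -0.17 (exact permutation p = 0.267, BH adjusted 0.40). Eng to Tgfbr3, a pair of co-receptors, differed by -0.47 (exact permutation p = 0.267, BH adjusted 0.40), and GapmeR 3 lay with the controls. Smad7 to Smad6 differed by -0.10 (exact permutation p = 0.533, BH adjusted 0.64) and Smad1 to Smad5 by -0.03 (exact permutation p = 0.80, BH adjusted 0.80).

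**Figure D4:**
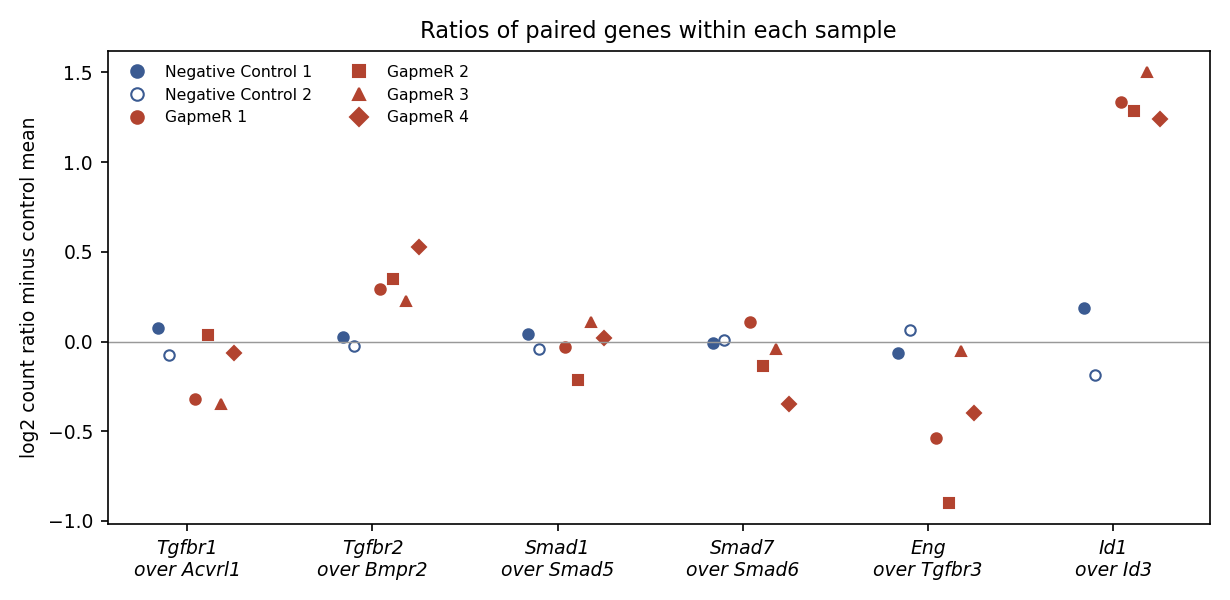
Log2 ratio of the counts of 6 gene pairs in each sample, minus the mean of the 2 Negative Control samples. Blue circles are controls and red symbols GapmeR samples. Id1 over Id3 (1.34 higher on average) and Tgfbr2 over Bmpr2 (0.35 higher) separate the groups, and the other 4 pairs overlap.

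The rest of the pathway was followed through 160 other genes in 9 lists, of which 135 had enough counts to be tested. Of these, 24 were called higher (17.8%) and 43 lower (31.9%), against 25.4% and 20.0% over all genes tested and 21.6% and 30.2% over the genes within the expression range of the 10. The median log2 fold change of the 135 was -0.08, against 0.03 over all genes. With at least 10 counts required in every sample, 105 were tested, of which 11 were called higher and 35 lower. Over all 13353 genes tested under that filter, 3263 were called higher and 2923 lower. Counts under that filter in the lists below are to be read against these, not against the shares above. With scaling by library size only, the counts were 31 higher and 33 lower, and over all genes that scaling moved the share of calls that were higher from 55.9% to 74.1%.

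Among the receptors outside the 10 genes, 7 of 8 were tested. Of these, 1 was called higher (14.3%) and 2 lower (28.6%), against 25.4% and 20.0% over all genes tested. Acvr1 (ALK2), Acvr1b (ALK4) and Acvr2a, receptors for BMPs and activins, had log2 fold changes of 0.05, -0.06 and -0.14 and were not called. Acvr2b, a type II receptor for activins, fell by 1.02 on the log2 scale, from 67 and 74 counts in the controls to 37 to 45 counts in the GapmeR samples (edgeR adjusted p = 0.00142). Amhr2, the type II receptor for anti-Müllerian hormone, had 250, 271, 245 and 240 counts in GapmeR 1 to 4 and 10 counts in each control. Its log2 fold change of 4.44 ± 0.22 (SE, edgeR adjusted p = 1.3e-10) was far above that of any of the 10 genes. Bmpr1a, which encodes the type I receptor ALK3 and was looked at after its values were seen, had 4 to 12 counts in every sample and was not called.

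Of the SMADs outside the 10 genes, 4 of 4 were tested. Of these, 1 was called higher (25%) and 0 lower, against 25.4% and 20.0% over all genes tested. The counts for the SMADs were the same without adjustment and with DESeq2 and limma-voom. The SMAD called higher was Smad4, which joins the SMADs of both branches. It had 1460, 1552, 1280 and 1288 counts in GapmeR 1 to 4 and 830 and 914 counts in Negative Control 1 and 2. Its mean was 41.0 CPM after knockdown and 29.5 CPM in the controls, and the groups did not overlap. The log2 fold change was 0.48 ± 0.08 (SE, edgeR adjusted p = 0.000105). Smad2 and Smad3, the receptor SMADs of the TGF-beta branch, were at -0.05 and -0.07 and were not called.

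Of the co-receptors and decoys, 5 of 7 were tested, with 2 called lower (40%) and 0 higher. Over all genes tested, these shares were 20.0% and 25.4%. The counts for this list were the same without adjustment and with DESeq2 and limma-voom. Scaling by library size only called 1 higher. Bambi, a receptor-like decoy with no kinase that is itself induced by BMP, had 104, 183, 94 and 97 counts in GapmeR 1 to 4 and 337 and 566 counts in Negative Control 1 and 2. It fell by 2.11 on the log2 scale ± 0.19 (SE, edgeR adjusted p = 1.4e-06). Rgmb, a BMP co-receptor of the repulsive guidance family, fell by 0.56 on the log2 scale (adjusted p = 1.7e-05 in edgeR). Tgfbr3 (betaglycan), at -0.12, was not called and had 64 to 101 counts in a sample.

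Among the ligands, 16 of 29 were tested, with 4 called higher (25%) and 6 lower (37.5%). Over all genes tested, these shares were 25.4% and 20.0%. Of the higher ones, Bmp8a, Gdf5 and Gdf7 had between 0 and 2 counts summed over the controls. They passed the filter only through the GapmeR samples. With at least 10 counts required in every sample, 9 ligands were tested, with 0 called higher (1 without adjustment) and 5 lower. Gdf11 and Tgfb3 fell by 1.51 and 1.504 on the log2 scale (adjusted p = 9.1e-10 and 1.3e-08 in edgeR), Gdf11 from 29.3 to 10.3 CPM and Tgfb3 from 17.3 to 6.09 CPM. Bmp8a had 69, 53, 75 and 43 counts in GapmeR 1 to 4 and 0 and 2 counts in Negative Control 1 and 2. Its ratio of summed counts, scaled for depth, was 52.3 (95% counting interval 14.3 to 434). Other ligands were looked at after their values were seen. Bmp4 fell by 0.53 and Bmp2 by 0.51 on the log2 scale (adjusted p = 9.3e-06 and 0.0368 in edgeR). The call of Bmp2 was lost without control 1 (-0.49, edgeR adjusted p = 0.162), without control 2 (-0.50, edgeR adjusted p = 0.159), without GapmeR 4 (-0.47, edgeR adjusted p = 0.0654), with DESeq2 size factors (-0.51, edgeR adjusted p = 0.0522) and with scaling by library size only (-0.37, edgeR adjusted p = 0.0809). Tgfb1, at 147 CPM against 156 CPM, was not called. Gdf2 (BMP9) and Bmp10, the circulating ligands of ALK1, had 0 counts in all 6 samples, which allows up to 0.0771 to 0.110 CPM in a sample.

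Of 14 genes tested that store or activate the ligands, 2 were called higher (14.3%) and 3 lower (21.4%). Over all genes tested, these shares were 25.4% and 20.0%. The 3 lower genes were Tll1, a protease that frees BMPs from chordin, at -1.43, Ltbp1, which anchors latent TGF-beta in the matrix, at -0.88, and Lrrc32 (GARP), which holds it on the cell surface, at -0.80. Lrrc32 and Ltbp1 were abundant, at 494 and 234 CPM in the controls and 284 and 127 CPM after knockdown. Of 17 secreted antagonists tested, 4 were called in each direction (23.5%), against 25.4% higher and 20.0% lower over all genes tested. The 4 higher ones, Fstl3, Sost, Lefty1 and Lefty2, had between 0 and 3 counts summed over the controls and passed the filter only through the GapmeR samples. With at least 10 counts required in every sample, 9 antagonists were tested, with 0 higher, also without adjustment, and 3 lower. Fst, the activin antagonist follistatin, fell from 422 to 297 CPM (-0.51 on the log2 scale), and Chrd (chordin) and Nbl1, both BMP antagonists, fell by 0.81 and 0.46 on the log2 scale at 3.96 and 5.65 CPM in the controls. The call of Chrd was lost without control 2 (-0.67, edgeR adjusted p = 0.0610), and that of Nbl1 without control 1 (-0.49, edgeR adjusted p = 0.0780), without control 2 (-0.38, edgeR adjusted p = 0.191) and with scaling by library size only.

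All 27 intracellular regulators were tested, with 5 called higher (18.5%) and 6 lower (22.2%). Over all genes tested, these shares were 25.4% and 20.0%. Zfyve9 (SARA), which brings SMAD2 and SMAD3 to the TGF-beta receptor, had 752 to 881 counts in the GapmeR samples and 154 and 168 counts in the controls. Its log2 fold change was 2.12 ± 0.10 (SE, edgeR adjusted p = 1.3e-10). Usp4, a deubiquitinase that stabilizes ALK5, rose by 0.80 and Tab1, a partner of the kinase TAK1, by 0.77 on the log2 scale.

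Of 16 BMP targets tested among 19, 7 were called lower (43.8%) and 1 higher (6.25%). These shares were 20.0% and 25.4% over all genes, and 30.2% and 21.6% over genes within the expression range of the 10. The median log2 fold change of the targets was -0.27. Dlx3, the gene called higher, had 0 counts in both controls and passed the filter only through the GapmeR samples. With at least 10 counts required in every sample, 11 were tested, with 5 lower and 0 higher. The list does not separate targets switched on from those switched off. Id3 had 741, 998, 710 and 851 counts in GapmeR 1 to 4 and 1528 and 2027 counts in Negative Control 1 and 2, and the groups were far apart. Id3, whose promoter window is printed above, fell by 1.30 on the log2 scale ± 0.09 (SE, 95% interval -1.49 to -1.12, edgeR adjusted p = 5.9e-09). Stmn2 and Tgm2, reported targets in other cells, fell by 0.99 and 0.46 on the log2 scale. Id2, looked at after its values were seen, had a log2 fold change of 0.00413 and was not called, as Id1 was not. With scaling by library size only, 5 of the 16 were called lower and 1 higher.

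Of 29 TGF-beta targets tested among 30, 13 were called lower (44.8%) and 6 higher (20.7%), and the median was -0.08. Over genes within the expression range of the 10, 30.2% were lower and 21.6% higher. Among the higher genes, Itgb6 had 0 counts in both controls, and Il11 had 1 and 3 counts in Negative Control 1 and 2. Both passed the filter only through the GapmeR samples. With at least 10 counts required in every sample, 25 were tested, with 11 lower and 3 higher. This list too does not separate targets switched on from those switched off. With scaling by library size only the counts were 10 lower and 7 higher, and the median of 0.07 differed by the shift that this scaling gives all genes. Angptl4, an inhibitor of lipoprotein lipase, fell from 38.7 to 17.0 CPM (-1.18 on the log2 scale). Thbs1, the matrix protein that activates latent TGF-beta, fell from 101 to 53.3 CPM (-0.92). Tagln (SM22), an actin-binding protein, rose by 1.96 on the log2 scale from 8 and 24 counts to 57 to 86 counts. Its exons overlap those of Pcsk7 on the opposite strand in GRCm39, and the part of shared reads was not tested. Ccn2, a matricellular protein looked at after its values were seen, fell by 0.50 on the log2 scale. The matrix and contractile genes of these lists are also expressed by fibroblasts and smooth muscle, whose marker sums are given above.

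**Figure D5:**
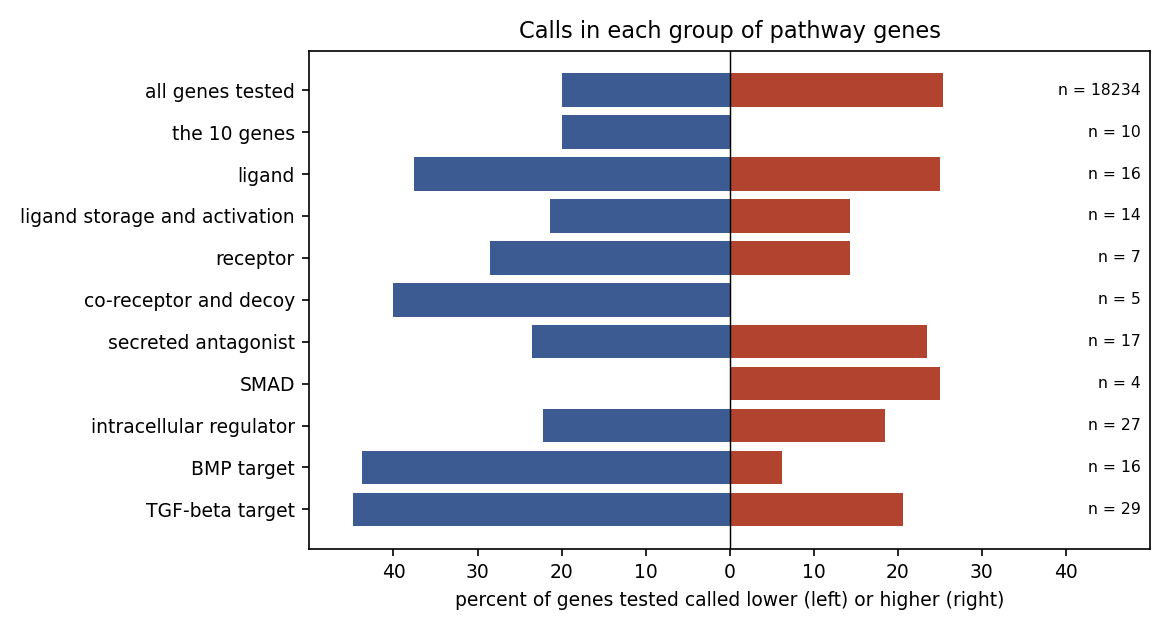
Percent of the genes tested in each list that were called lower (blue, left) or higher (red, right) after knockdown, at an adjusted p-value under 0.05 in edgeR, with the number tested. The top bar gives all 18234 genes (20.0% lower, 25.4% higher). The 10 genes have 20.0% lower and none higher, and BMP and TGF-beta targets have 43.8% and 44.8% lower. Of the genes within the expression range of the 10, which are not drawn, 30.2% were lower.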

How the data were processed

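Total RNA of bEND.3 cells was ribodepleted and read from both ends. The submitters' processing notes name Trimmomatic 0.36, STAR 2.5.2b, Subread 1.5.2 and mm10. The deposited values were whole-number read counts per Ensembl gene that the authors had neither normalized nor filtered. The strand setting and Ensembl release are not given in the sources used here, so overlapping genes may share reads. Exons of 8 of the 10 genes overlap another gene in GENCODE vM39. Among the 39 genes named by rule, which include the 10, exons of 25 do.

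Samples were grouped by title into 4 GapmeR and 2 Negative Control samples, while the paper gives 4 of each. In the table, 1 further column of sample counts, whose name matches no label of a sample, was not used. Total counts were 29261988 to 37117934. Replicates differed beyond sampling noise, with chi-square per degree of freedom between 5.42 and 25.3. Intervals from counts cover counting error only.

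The 18234 genes that reached 5 counts in 2 or more samples were tested with edgeR 4.0.16 in R 4.3.3 by TMM scaling and the robust quasi-likelihood test with BH adjustment over all of them. CPM values use the TMM factors (1.02 to 1.05 in GapmeR samples, 0.931 and 0.936 in controls). Intervals use the moderated degrees of freedom. Ratios within samples had 0.5 counts added and an exact two-sided permutation test. Exon lengths are from GENCODE vM39 (GRCm39), and coordinates and promoters from RefSeq GRCm38.p6. DESeq2 1.42.0 and limma 3.58.1 were alternatives, beside other scalings, filters, a 1.5-fold threshold, a replicate block and samples left out. Python 3.11.15, pandas 2.3.3 and scipy 1.17.1 were used. On data made with known answers the test recovered 197 of 200 changed genes. The changes put in were larger than those of Eng and Bmpr2, with the same spread for all genes. Recovery of changes as small as those of Eng and Bmpr2 was not tested.

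The 10 genes and the lists were chosen with earlier results of these data known. Other genes named are up to 3 per list with the largest absolute log2 fold change among called genes with a mean of at least 1 CPM and no overlap of the groups, all receptors and SMADs with at least 1 CPM, and Tgfbr3 and Id3 as partners in ratios. The other assays of the paper were not analysed here.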

Additional observations from a re-analysis of the deposited data

Results flagged for a closer look

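Of 45 groups of 4 GapmeR samples examined among the named genes and ratios, 1 held a sample far from the others. Bambi was at 4.70 CPM in GapmeR 2 and at 3.00 to 3.07 CPM in the other GapmeR samples. The gap was 0.961 of the group's range, above the 95% critical value of Dixon's test. Chance alone flags about 1 in 20 groups. GapmeR 2 still lay below both controls for Bambi.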

How the results depend on the processing

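Eng kept its direction and its call under all 14 alternatives. Of the 10 genes, 1 was called higher with scaling by library size only (Tgfbr2). The number called lower was 1 with at least a 1.5-fold change, with scaling by library size only, with the replicate block and without GapmeR samples 3 and 4, a setting chosen after seeing the data because these had more macrophage marker counts. With 1 sample left out in turn it was between 1 and 2, being 1 without either control. Where 1 control remained, it was assumed to vary like the GapmeR samples. The replicate block rests on the 4 samples whose titles share a number. Deviations of same-numbered samples from their group means correlated at -0.110 and 0.172 over 8870 genes. With 2 controls the deviations of the controls mirror each other. These correlations therefore cannot tell whether same-numbered samples shared a culture or batch. Under the block Eng was at -0.70 and Bmpr2 at -0.22 (adjusted p = 0.0566 in edgeR). Among the other pathway genes, 11 were called higher with at least 10 counts in every sample, where genes low in the controls are not tested, and 22 were lower by at least 1.5-fold. Signs turned for genes that were not called. Scaling by library size only moved the median of all genes by 0.15 and the filter of 10 counts by 0.0471, which covers the turns of Acvrl1 and Smad6 under these settings. For the other turns the cause was not tested. Acvrl1 was at 0.12 with library size only, at 0.0223 with at least 10 counts in every sample and between -0.0470 and 0.0355 with samples left out. Smad1 was at -0.0316 with the replicate block, at -0.0306 without GapmeR samples 3 and 4, and between -0.0187 and 0.0596 with samples left out. Smad6 was at 0.0422 with library size only, and Id1 lay between -0.0314 and 0.151 with samples left out. The difference in the log2 ratio of Id1 to Id3 lay between 1.15 and 1.53 with samples left out. The 10 genes had at least 277 counts in every sample, and whether depth limits their calls was not tested. Among the other genes named, Bmpr1a, Bmp8a, Tagln, Acvr2b, Stmn2 and Chrd rest on fewer counts.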
